A study of Homo sapiens with 16 samples.

Results

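The genes described here encode the autophagy machinery and its cargo receptors, measured by RNA sequencing in human myeloma cell lines in which the receptor CD28 or its ligand CD86 had been targeted by a short hairpin RNA (shRNA). The set was fixed by gene symbol and holds 38 genes of the 23459 in the deposited table, namely 37 genes of autophagosome formation and cargo binding and TFEB, a transcription factor of autophagy and lysosomal genes. All 38 symbols were found, each in a single row. The backgrounds were RPMI8226 made to overexpress Mcl1 (called the Mcl1 line here), KMS18, MM.1s and RPMI8226, all established plasma cell myeloma lines. Each background had a library with CD28 shRNA, with CD86 shRNA, with Gapdh shRNA (labelled a control) and with the empty pLKO.1 vector (called Vec here), which makes 16 libraries with 1 for each combination. No library is without a vector, so every value is from cells that had received one. The lines MM.1s, RPMI8226 and KMS18 served as replicates of an shRNA, the Mcl1 line is a single derived line, and nothing in the sources used here says that libraries of 1 line came from separate cultures. Neither the number nor the sequences of the hairpins are given in those sources.

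Autophagy encloses part of the cytoplasm in a double membrane, the autophagosome, and delivers it to the lysosome for breakdown. The ULK1 kinase complex starts the process, the BECN1 and PIK3C3 lipid kinase complex marks the growing membrane, ATG9A, ATG2 and WIPI proteins extend it, and a pair of ubiquitin-like conjugation systems attaches LC3 and GABARAP proteins to its lipids, where receptors such as SQSTM1 (p62) dock with ubiquitin-tagged cargo. In plasma cells and myeloma cells, which make large amounts of secreted protein, autophagy is known to limit the load on the endoplasmic reticulum.

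Each library had 3914513 to 5900955 reads in genes, and the CD28 shRNA library was the shallowest in every background. Summed over 8 plasma cell markers, levels were 631 to 1890 FPKM per library (fragments per kilobase of exon, scaled to library size, so that a level is already divided by gene length). Sums over 6 T cell markers were 0.314 to 7.68 FPKM, over 5 myeloid markers 0 to 3.54 FPKM and over 5 stromal markers 0 to 0.755 FPKM, with 3 stromal markers and 1 T cell marker at 0 in all libraries. As in any bulk RNA, fewer cells with a transcript and less of it per cell cannot be told apart. CD28 with its own shRNA was at 71.7% ± 7.14 of its Vec level (SD, n = 3 lines; limma adjusted p = 0.0295). CD86 with its own shRNA was at 54.9% ± 18.5 of Vec, below Vec in all 4 backgrounds, and did not pass the test against Vec (limma adjusted p = 0.315). With CD28 shRNA CD86 was at 190.1% ± 81.6 of Vec (limma adjusted p = 0.142), and it was lower with CD86 than with CD28 shRNA (log2 -1.33, limma adjusted p = 0.00943). GAPDH was at 32.7% ± 21.2 of Vec with its shRNA and did not pass either (log2 -1.89, limma adjusted p = 1), and MCL1 was higher by 1.43 on the log2 scale in the Mcl1 line than in RPMI8226 (limma adjusted p = 4e-05).

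The members covered a wide span of levels. GABARAP, a ubiquitin-like protein of the autophagosome membrane, was the most abundant at 86.6 to 212.4 FPKM (lowest to highest of 16 libraries; 447 to 1258 reads). GABARAPL2, its close relative, followed at 33.8 to 86.6 FPKM and SQSTM1 at 37.7 to 66.4 FPKM. VMP1, a membrane protein of the endoplasmic reticulum needed for autophagosome formation, read 24.5 to 46.6 FPKM. Among the least abundant of the genes tested were ATG7, the enzyme that activates both ubiquitin-like systems, at 1.77 to 3.04 FPKM, and ATG14, the subunit that directs the lipid kinase complex to autophagy, at 1.48 to 2.59 FPKM (46 to 72 reads). ATG10, the conjugating enzyme for ATG12, ranged from 0.271 to 6.22 FPKM, with 6 reads in KMS18 with Vec. MAP1LC3A, an LC3 gene, had 0 reads in all 16 libraries, where 3 reads would be 0.366 to 0.56 FPKM. ULK2, a relative of ULK1, had at most 0.651 FPKM and was at 0 in 5 libraries, all 4 of KMS18 and MM.1s with CD28 shRNA, where 3 reads would be 0.0497 to 0.0672 FPKM. These 2 genes were below the filter of a mean of 1 FPKM, and the other 36 were tested.

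**Figure D1:**
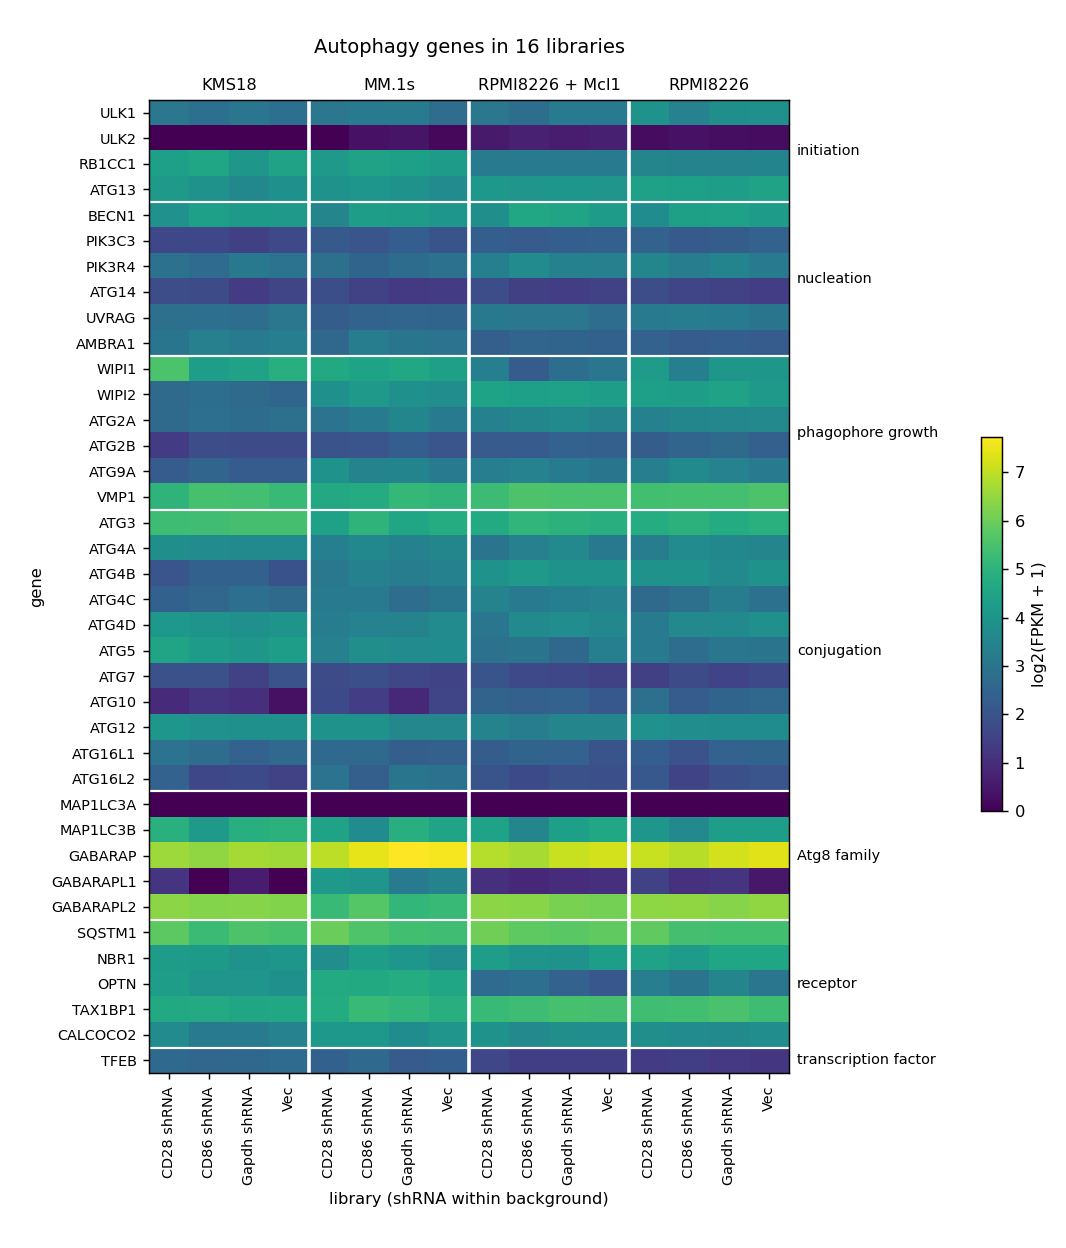
Level of each of the 38 genes (rows, grouped by role) in each of the 16 libraries (columns, by shRNA within background), as log2(FPKM + 1) on the colour scale; phagophore is the growing membrane and Atg8 family the LC3 and GABARAP genes. GABARAP is the brightest row, MAP1LC3A is at 0 throughout, and most rows change more between backgrounds than between the libraries of a background.

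Cell line moved most of these genes more than the shRNA did. In 30 of the 36 tested members the range of the 3 line means was larger than the range of the 4 shRNA means, as in 87.2% of all 11316 genes tested. The exceptions were ATG7, ATG12, ATG14 and the members called below against Vec, BECN1, SQSTM1 and MAP1LC3B. For BECN1, SQSTM1 and MAP1LC3B the range was 0.18, 0.06 and 0.62 between line means and 0.64, 0.46 and 0.82 between shRNA means. The median range between line means was 0.735 on the log2 scale for members and 0.838 for all genes, and between shRNA means 0.28 for members and 0.286 for all genes.

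The comparison of CD28 shRNA with Vec asks which autophagy genes change when the receptor is targeted. BECN1 was lower and SQSTM1 higher with CD28 shRNA, and the other 34 tested members did not pass. BECN1 encodes Beclin 1, the scaffold of the lipid kinase complex. With the backgrounds in the order MM.1s, RPMI8226, KMS18, Mcl1 line, here and in all lists of 4 values below, its level was 10.4, 12.6, 14.1 and 13.3 FPKM with CD28 shRNA, against 15.7, 18.4, 17.0 and 18.2 FPKM with Vec. With Gapdh shRNA it was 17.8, 20.6, 17.7 and 22.0 FPKM and with CD86 shRNA 19.3, 20.3, 19.5 and 24.0 FPKM. All 4 libraries with CD28 shRNA lay below all 12 others, so the groups did not overlap. The share of all genes that separate in this way was not computed. BECN1 fell by 0.44 on the log2(FPKM + 1) scale in the 3 lines (SE 0.10, limma adjusted p = 0.0477), to 72.45% ± 9.145 of Vec (SD, n = 3 lines), and was at 73.2% of Vec in the Mcl1 line. The libraries held 143 to 211 BECN1 reads with CD28 shRNA and 252 to 371 with Vec.

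SQSTM1, the receptor that links ubiquitin-tagged proteins to LC3 and is itself degraded by autophagy, read 61.9, 56.7, 54.4 and 66.4 FPKM with CD28 shRNA, against 40.4, 40.7, 44.1 and 56.6 FPKM with Vec. The CD28 shRNA library was the highest of the 4 in every background, and in the 3 lines none of the other 9 libraries exceeded 48.0 FPKM. SQSTM1 rose by 0.46 on the log2(FPKM + 1) scale (SE 0.10, limma adjusted p = 0.0448), to 138.5% ± 14.8 of Vec (SD, n = 3 lines), and was at 117.3% of Vec in the Mcl1 line. Both calls lay near the threshold and ended whenever a line was left out. For BECN1 the limma adjusted p was 0.27 without MM.1s, 0.215 without RPMI8226 and 0.138 without KMS18 (log2 -0.39, -0.40 and -0.54), and over all alternatives it ranged from 0.00842 to 1. For SQSTM1 it was 0.242, 0.18 and 0.0988 without the same lines (log2 0.38, 0.45 and 0.53), in a range of 0.00644 to 1.

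With 2 of 36 members past the threshold for CD28 shRNA against Vec (1 higher, 1 lower), the count stood beside 2.83% of all 11316 genes (0.716% higher and 2.11% lower). The members' median change was 0.015 on the log2 scale and that of all genes -0.003. In the initiation complex ULK1, the kinase, was at 0.22 (limma adjusted p = 0.448), and RB1CC1 and ATG13, its partners, were at -0.05 and 0.16. Of the other nucleation genes ATG14 had 2.59, 2.54, 2.54 and 2.53 FPKM with CD28 shRNA, against 1.60, 1.66, 2.04 and 1.91 FPKM with Vec. Its 4 values with CD28 shRNA were above its 4 with Vec, on 46 to 72 reads in any library. How many of all genes separate likewise was not computed. The ATG14 change of 0.37 did not pass (limma adjusted p = 0.138). The conjugation genes ATG5 and ATG7 were at 0.00 and -0.03, MAP1LC3B, the main LC3 gene, at -0.13 and the transcription factor TFEB at 0.07, all with a limma adjusted p of 0.555 to 0.997. VMP1 was at -0.25 (limma adjusted p = 0.26).

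GABARAPL1, another member of the GABARAP group, had the largest estimate, 0.97 (SE 0.23), and did not pass (limma adjusted p = 0.0561). It was at 17.2, 1.83, 1.24 and 1.09 FPKM with CD28 shRNA, against 9.95, 0.408, 0 and 1.04 FPKM with Vec. Only in MM.1s did it have over 30 reads, so the estimate from RPMI8226 and KMS18 rests on 18 to 28 reads with CD28 shRNA and 0 to 8 with Vec. Without RPMI8226 and without KMS18 it was at 0.95 and 0.87, and without MM.1s it was below the filter. At an unadjusted p under 0.05 there were 8 of 36 members and 2240 of 11316 genes, with ATG4D, ATG12, GABARAP and OPTN beside those named.

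**Figure D2:**
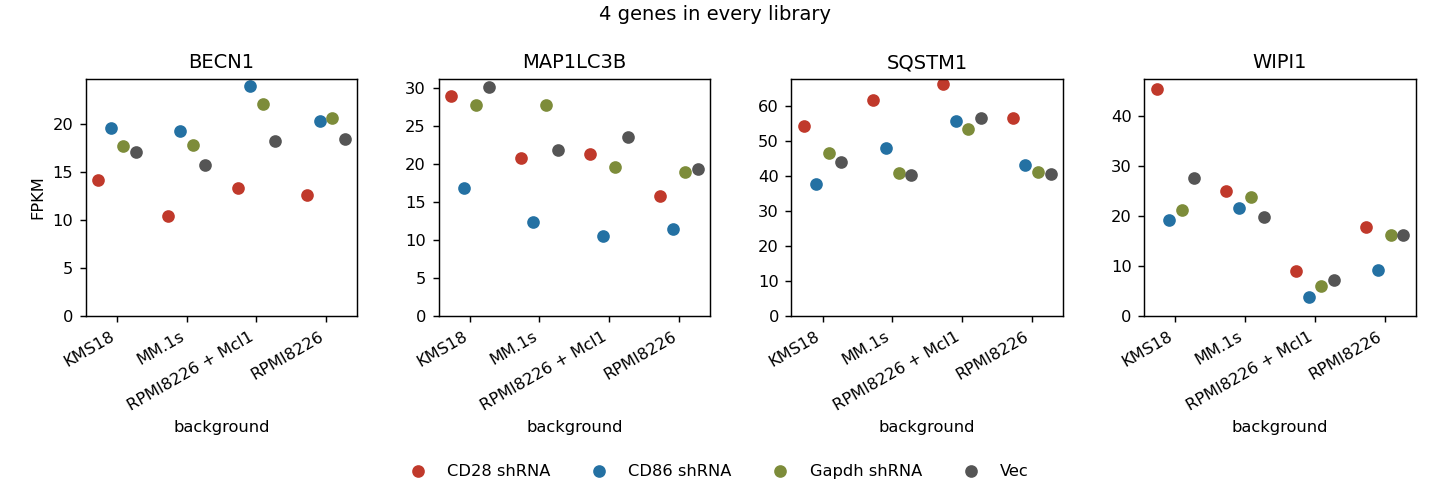
FPKM of BECN1, MAP1LC3B, SQSTM1 and WIPI1 in each library, with 1 point per library coloured by shRNA and grouped by background. BECN1 is lowest and SQSTM1 highest with CD28 shRNA in every background, and MAP1LC3B is lowest with CD86 shRNA in every background.

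CD86 shRNA was compared with Vec for the ligand, with the Vec libraries that also served the CD28 shRNA comparison. MAP1LC3B was lower and no other member passed. MAP1LC3B encodes LC3B, whose lipid-bound form coats the autophagosome and is the usual marker of it. It read 12.3, 11.5, 16.8 and 10.5 FPKM with CD86 shRNA, against 21.9, 19.4, 30.2 and 23.5 FPKM with Vec. All 4 values with CD86 shRNA lay below all 4 with Vec, and in each background the CD86 shRNA library was the lowest of the 4. How many of all genes do so was not computed. MAP1LC3B fell by 0.76 on the log2(FPKM + 1) scale (SE 0.11, limma adjusted p = 0.0171), to 57.1% ± 2.01 of Vec (SD, n = 3 lines), and was at 44.6% of Vec in the Mcl1 line. The libraries held 134 to 223 reads of it with CD86 shRNA and 296 to 474 with Vec.

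The size of this change varied little when a line was left out, while the call ended each time. It was -0.76 without MM.1s, -0.79 without RPMI8226 and -0.74 without KMS18 (limma adjusted p = 0.127, 0.0953 and 0.279), and over all alternatives the adjusted p ranged from 0.00178 to 1. For CD86 shRNA against Vec 1 of 36 members passed, as lower, where 0.627% of all genes did (0.0619% higher and 0.566% lower). The members' median was 0.069 and that of all genes 0.02, and members ranged from -0.76 to 0.40. BECN1 was at 0.20 (limma adjusted p = 0.448), SQSTM1 at 0.04 (0.917), ULK1 at 0.00 (1), ATG5 at -0.06 (0.911), ATG7 at 0.12 (0.771), GABARAPL1 at 0.40 (0.505), TFEB at 0.14 (0.681) and VMP1 at -0.05 (0.887). WIPI2, a lipid-binding protein that recruits the ATG16L1 complex, was the other member at an unadjusted p under 0.05 (0.26, limma adjusted p = 0.329).

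LC3B was a small part of its family's transcripts. The 5 LC3 and GABARAP genes summed to 181.9 to 282 FPKM per library, of which GABARAP made up 45.8% to 75.3% and MAP1LC3B 4.86% to 14.7%. The MAP1LC3B share was 4.86%, 5.30%, 9.23% and 5.32% with CD86 shRNA, against 8.27%, 7.13%, 14.7% and 9.75% with Vec. It was the lowest of the 4 libraries in each background. GABARAP itself read 175, 118, 86.6 and 105.0 FPKM with CD86 shRNA and 124, 135, 96.1 and 116 FPKM with CD28 shRNA, against 196, 165, 98.4 and 148 FPKM with Vec. Both shRNA libraries were below Vec in each background, and neither difference passed (log2 -0.27, limma adjusted p = 0.41, with CD86 shRNA and -0.33, limma adjusted p = 0.199, with CD28 shRNA). With Gapdh shRNA GABARAP read 212, 147, 102 and 135 FPKM, below Vec in RPMI8226 and the Mcl1 line. With CD86 shRNA the summed level was lower than with Vec in every background. With CD28 shRNA it was lower in all but KMS18, where it was 210 FPKM against 204.7 with Vec. With Gapdh shRNA the sum was also below Vec in RPMI8226 (245.7 against 271.5 FPKM) and the Mcl1 line (227.3 against 241). It was above Vec in MM.1s (282 against 264.5 FPKM) and KMS18 (210.1 against 204.7). MAP1LC3B2 is a near-identical copy of MAP1LC3B, and the sources used here do not say how reads were shared between them.

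**Figure D3:**
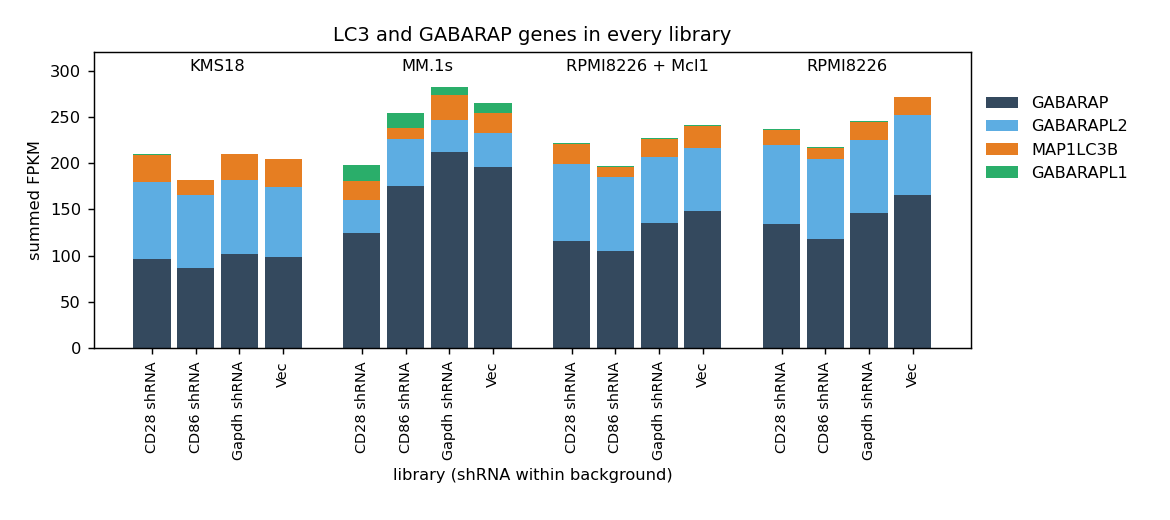
Summed FPKM of the LC3 and GABARAP genes in each library (bars start at 0), split by gene, with MAP1LC3A at 0 and not drawn. GABARAP and GABARAPL2 make up most of every bar, the MAP1LC3B part is smallest with CD86 shRNA in each background, and GABARAPL1 is visible in MM.1s.

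The ligand and receptor shRNAs were compared directly. These comparisons share their libraries with those against Vec. BECN1 was higher with CD86 shRNA than with CD28 shRNA (0.64, SE 0.10, limma adjusted p = 0.00514), and MAP1LC3B (-0.63, SE 0.11, limma adjusted p = 0.00865), SQSTM1 (-0.42, SE 0.10, limma adjusted p = 0.03) and WIPI1 (-0.76, SE 0.20, limma adjusted p = 0.0366) were lower. WIPI1 binds the lipid that the BECN1 complex makes. It read 21.6, 9.15, 19.3 and 3.77 FPKM with CD86 shRNA, against 25.0, 17.9, 45.3 and 9.09 FPKM with CD28 shRNA. The CD86 shRNA library was the lower in each background, by little in MM.1s, and the groups overlapped across backgrounds. Against Vec neither shRNA passed for WIPI1, at -0.38 with CD86 shRNA (limma adjusted p = 0.451) and 0.38 with CD28 shRNA (limma adjusted p = 0.319).

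Of 36 members 4 differed between CD86 and CD28 shRNA, 1 higher and 3 lower, where 9.51% of all genes did (5.41% higher and 4.1% lower). ATG16L2, a relative of the membrane-targeting protein ATG16L1, came closest among the rest (-0.63, limma adjusted p = 0.0536) and passed with median-of-ratios scaling and with voom. Of the members named in every comparison ULK1 was at -0.22, ATG5 at -0.06, ATG7 at 0.15, GABARAPL1 at -0.56, TFEB at 0.07 and VMP1 at 0.20, none past the threshold. Leaving out MM.1s, RPMI8226 and KMS18 in turn gave BECN1 0.55, 0.63 and 0.74 (limma adjusted p = 0.0747, 0.0505 and 0.0359), MAP1LC3B -0.59, -0.73 and -0.57 (0.0563, 0.0362 and 0.092), SQSTM1 -0.45, -0.44 and -0.37 (0.1, 0.132 and 0.121) and WIPI1 -1.04, -0.70 and -0.55 (0.0518, 0.13 and 0.189). Over all alternatives the limma adjusted p ranged from 0.00228 to 0.667 for BECN1, 0.0021 to 1 for MAP1LC3B, 0.00403 to 1 for SQSTM1 and 0.00903 to 1 for WIPI1.

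Gapdh shRNA against Vec compared both controls. Limma called 0 of 36 members and 0% of all genes, GAPDH included, voom on reads also called 0, and members ranged from -0.20 to 0.34. OPTN, the receptor optineurin, was the member at an unadjusted p under 0.05 in limma (log2 0.30), beside 402 of all genes, and voom gave 2 members at that level. BECN1 was at 0.12, SQSTM1 at 0.04, MAP1LC3B at 0.06, ULK1 at 0.22, ATG5 at -0.07, ATG7 at -0.18, GABARAPL1 at 0.34, TFEB at -0.04 and VMP1 at 0.04, all with a limma adjusted p of 1.

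The authors' deposited table holds its own comparisons of the knockdowns for 37 members. At a false discovery rate under 0.05 the authors' deposited table has 3 members for CD28 shRNA against Vec (5.38% of all its genes), which are BECN1 (-0.46, false discovery rate 0.0485), SQSTM1 (0.47, 0.00229) and GABARAPL1 (1.81, 0.000486). The call column of the authors' deposited table marks SQSTM1 and GABARAPL1 and leaves BECN1 unmarked. For CD86 shRNA against Vec the authors' deposited table has MAP1LC3B alone (-0.83; 2.04% of all its genes). For CD86 against CD28 shRNA the authors' deposited table has BECN1, WIPI1, ATG16L2, MAP1LC3B and SQSTM1, 5 members beside 10.3% of all its genes. The signs of these values are those of the fits above, which draw on the same series of libraries. The name of the authors' deposited table reads as leaving out Gapdh shRNA and the Mcl1 line. The knockdown fits above kept Gapdh shRNA, so the sets of libraries may differ.

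The 3′ UTRs of the members were searched for short words that went with lower levels under each shRNA, since an shRNA can also act on transcripts that match its seed. For each of 13532 words of 7 bases, the mean log2 change of genes whose 3′ UTR holds the word was set against that of the other genes, over 10062 genes that are not members. CTGTGTT had the largest difference for CD28 shRNA (-0.0959) and TCAAGCA for CD86 shRNA (-0.087), while the largest for Gapdh shRNA was -0.0131. CTGTGTT was in 24.6% of these 3′ UTRs, in 61.5% of the 218 genes called lower with CD28 shRNA and in 12.9% of the 70 called higher. TCAAGCA was in 13.9%, in 58.7% of the 63 genes called lower with CD86 shRNA and in 0 of the 6 called higher. The words were picked from these same libraries, so these shares are a description. The Mcl1 line's libraries did not enter the choice, but it derives from RPMI8226, whose libraries did, so it is not an independent check. In the Mcl1 line genes with the word averaged -0.0774 against 0.00656 for CD28 shRNA and -0.0709 against 0.0135 for CD86 shRNA. Whether either hairpin acts through its word was not tested, nor was the part of UTR length in these shares and averages.

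BECN1 and MAP1LC3B each hold the word of the shRNA with which they were lower, and SQSTM1 and WIPI1 hold neither. BECN1 has CTGTGTT at base 530 of its 626-base 3′ UTR (chromosome 17), and MAP1LC3B has TCAAGCA at base 154 of its 1682-base 3′ UTR (chromosome 16). The sites below are shown because they lie in BECN1 and MAP1LC3B, the members called lower, or in members that carry the same word with another change. They are read 5′ to 3′ on the transcript strand from GENCODE release 29 (GRCh38), counted from the base after the stop codon, with the word in capitals, and for ATG5 the first of its 2 sites is given.
BECN1, CD28 shRNA word: cgactctgctCTGTGTTagagatatga
VMP1, CD28 shRNA word: tctgtcgtatCTGTGTTaatgttttct
MAP1LC3B, CD28 shRNA word: aaactagtgcCTGTGTTgttacggaaa
ATG5, CD28 shRNA word: actttttactCTGTGTTaccattttga
ATG16L2, CD28 shRNA word: tggaccaaagCTGTGTTcaggtacctg
MAP1LC3B, CD86 shRNA word: tgtttgtgttTCAAGCAgaaaaactga
PIK3C3, CD86 shRNA word: cagtgatattTCAAGCAtgatgttttg

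Members that hold a word took changes on both sides of 0. CTGTGTT was in ULK1, ULK2, BECN1, WIPI2, ATG2B, ATG5, ATG16L2, MAP1LC3B, CALCOCO2 and VMP1. Of these, the 9 tested ones had a median change of 0.001 with CD28 shRNA, 4 of them below 0, and the 27 other tested members a median of 0.022. Their changes ran from -0.44 for BECN1 and -0.25 for VMP1 through 0.00 for ATG5 to 0.35 for ATG16L2. TCAAGCA was in PIK3C3, ATG14, ATG2B and MAP1LC3B, with a median of -0.008 for CD86 shRNA over 4 genes, against 0.077 for the 32 others. MAP1LC3B was at -0.76, PIK3C3, the catalytic subunit of the lipid kinase, at -0.09, ATG2B at 0.07 and ATG14 at 0.19. MAP1LC3B carries both words and was at -0.13 with CD28 shRNA. Members with a word had the longer 3′ UTRs, with medians of 1810 bases for CTGTGTT and 4890 for TCAAGCA, against 1330 and 1320 bases in the members without, and the part of UTR length in these values was not tested.

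**Figure D4:**
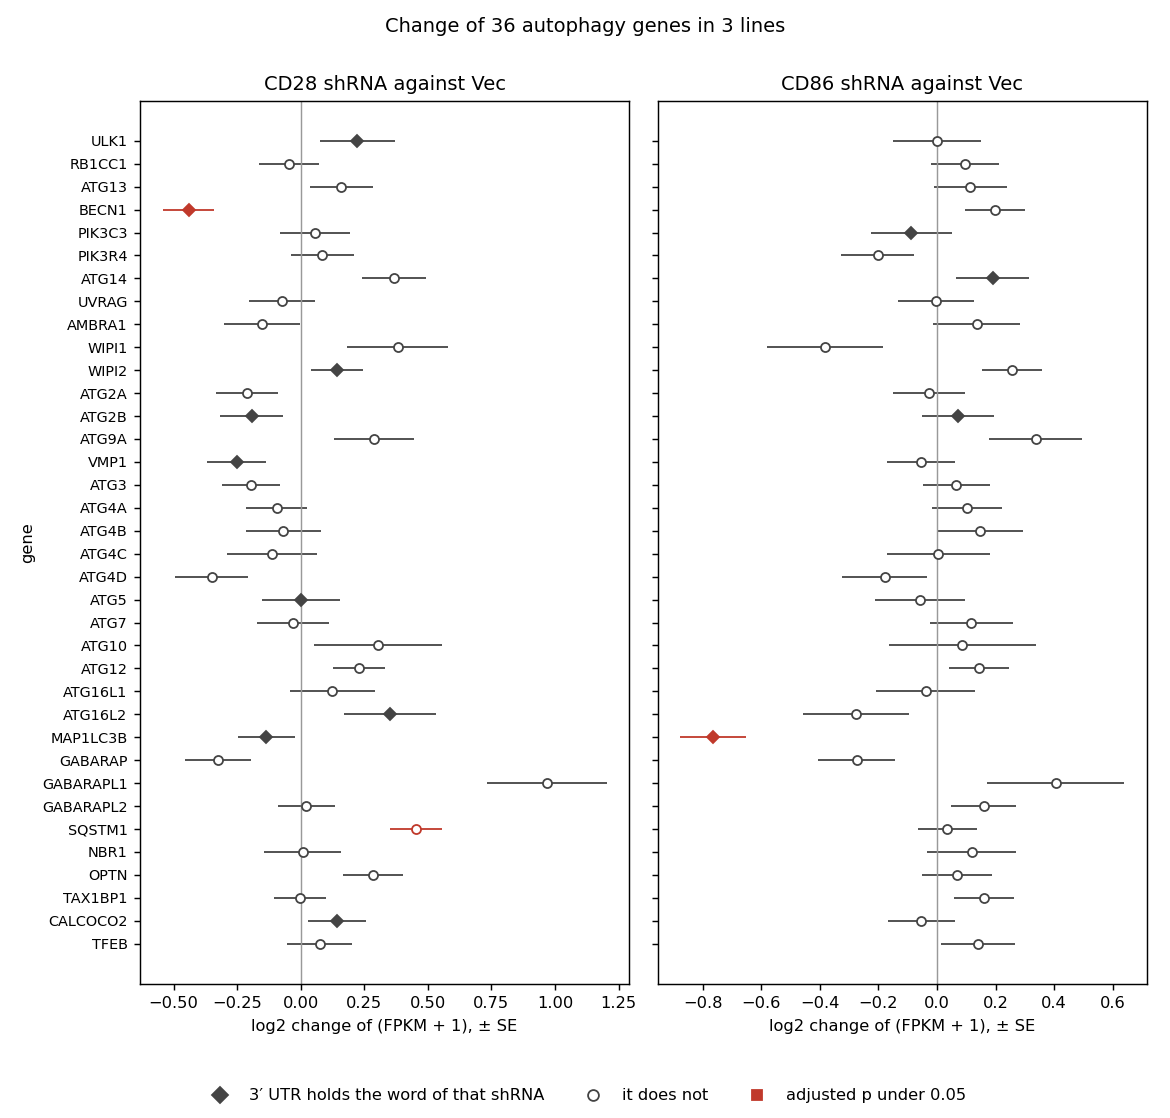
Log2 change of (FPKM + 1) with its SE for each of the 36 tested genes over 3 lines, for CD28 shRNA against Vec (left) and CD86 shRNA against Vec (right), with 0 marked by the grey line. Filled diamonds are genes whose 3′ UTR holds the word of that shRNA, and red marks the genes past the threshold, BECN1 and SQSTM1 on the left and MAP1LC3B on the right.

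The Mcl1 line was asked whether its response to either shRNA differed from the mean response of the 3 lines. For CD28 shRNA limma called 0 of 36 members and 0.00881% of all genes, with 0 members and 371 of 11349 genes at an unadjusted p under 0.05, and voom called 0 members. The differences were 0.02 for BECN1 and -0.23 for SQSTM1, each with an SE of 0.20. For CD86 shRNA limma called 0 members and 0% of all genes, with 2 members and 293 of 11349 genes at an unadjusted p under 0.05, the members being PIK3R4, the regulatory subunit of the lipid kinase complex (0.57), and OPTN (0.67), and voom called 0. The difference was -0.33 for MAP1LC3B (SE 0.23). Since the Mcl1 line has 1 library per shRNA, these tests take their spread from the other lines.

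Apart from the shRNAs, the lines differed in most members, as they did in most genes. Between KMS18 and RPMI8226 26 of 36 members differed, 10 higher and 16 lower, where 70.3% of all genes did (35.2% higher and 35.1% lower). Between KMS18 and MM.1s it was 21, 8 higher and 13 lower (65.3% of all genes, 30.8% higher and 34.5% lower), and between MM.1s and RPMI8226 24, 11 higher and 13 lower (69.1%, 35.9% higher and 33.2% lower). Where ranges of lines are said below not to touch, the share of all genes doing so was not computed. The p-values here rest on 4 libraries per line, which are libraries of 1 line. Means below are in FPKM with the SD over these 4 libraries, and log2 differences are on the log2(FPKM + 1) scale with a limma adjusted p under 0.05 unless another is given.

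In initiation, ULK1 averaged 6.73 ± 0.73 in KMS18 and 7.40 ± 1.18 in MM.1s, against 12.96 ± 2.19 in RPMI8226, log2 differences of -0.84 and -0.73. RB1CC1, the large scaffold FIP200, ran the other way at 19.8 ± 2.79 in KMS18 and 18.8 ± 1.82 in MM.1s, against 10.2 ± 0.18 in RPMI8226 (0.88 and 0.82). ATG13 was lower in both than in RPMI8226 (-0.50 and -0.47). KMS18 and MM.1s did not differ past the threshold in any of the 3. RPMI8226 thus had the highest ULK1 and ATG13 and the lowest RB1CC1 of the 3 lines.

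In nucleation, BECN1 averaged 17.1 ± 2.24 in KMS18, 15.8 ± 3.88 in MM.1s and 17.9 ± 3.72 in RPMI8226, and no pair of lines differed past the threshold (limma adjusted p 0.087 to 0.634). ATG14 likewise passed in no pair. PIK3C3 was at 2.12 ± 0.25 in KMS18, 3.41 ± 0.44 in MM.1s and 4.05 ± 0.46 in RPMI8226, with KMS18 lower than either (-0.50 against MM.1s and -0.70 against RPMI8226). PIK3R4 was lower in KMS18 and MM.1s than in RPMI8226 (-0.45 and -0.63). UVRAG, a BECN1 partner, was lower in MM.1s than in RPMI8226 (-0.72), higher in KMS18 than in MM.1s (0.44) and lower in KMS18 than in RPMI8226 (-0.28). AMBRA1, a regulator that binds BECN1, was at 8.38 ± 0.98 in KMS18 and 6.89 ± 1.5 in MM.1s, against 3.99 ± 0.31 in RPMI8226 (0.91 and 0.64).

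In membrane growth, KMS18 stood low for several genes. WIPI2 averaged 5.39 ± 0.46 in KMS18, where MM.1s had 14.3 ± 1.90 (-1.26) and RPMI8226 19.1 ± 1.46 (-1.65), and the ranges of the 3 lines did not touch at 4.80 to 5.92, 12.8 to 17.1 and 17.2 to 20.8 FPKM. ATG9A, the scramblase carried on vesicles to the growing membrane, averaged 4.02 ± 0.52 in KMS18, where MM.1s had 10.7 ± 2.61 (-1.20) and RPMI8226 9.66 ± 1.54 (-1.08). The lipid transfer proteins ATG2A and ATG2B were also lower in KMS18 than in MM.1s (-0.46 and -0.41) or RPMI8226 (-0.78 for each). They were lower in MM.1s than in RPMI8226 as well (-0.31 and -0.37), and WIPI2 was too (-0.39). WIPI1 went against this pattern, at 28.3 ± 11.9 in KMS18 and 22.6 ± 2.26 in MM.1s against 14.9 ± 3.89 in RPMI8226 (0.85 and 0.61). VMP1 was lower in MM.1s than in RPMI8226 (-0.56), and higher in KMS18 than in MM.1s (0.39). VMP1 overlaps the gene of MIR21, and whether reads were counted by strand is unknown here.

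In conjugation, the protease ATG4B, which primes LC3 and GABARAP proteins, averaged 3.64 ± 0.73 in KMS18, where MM.1s had 8.82 ± 0.98 (-1.09) and RPMI8226 13.9 ± 1.36 (-1.69), and the ranges of the 3 lines did not touch. It was lower in MM.1s than in RPMI8226 as well (-0.60). The other ATG4 proteases did not follow it: ATG4D was higher in KMS18 than in MM.1s (0.52) or RPMI8226 (0.41), ATG4A higher (0.26) and ATG4C lower (-0.43) in KMS18 than in MM.1s. ATG5, which is joined to ATG12, was at 18.7 ± 2.44 in KMS18 and 11.8 ± 1.63 in MM.1s, against 6.98 ± 0.86 in RPMI8226 (1.30 and 0.68), and 0.62 higher in KMS18 than in MM.1s. ATG10, which joins them, was in the opposite order at 0.889 ± 0.441 in KMS18 and 1.73 ± 0.65 in MM.1s, against 4.95 ± 1.02 in RPMI8226 (-1.67 and -1.15). ATG3, the enzyme that hands LC3 to lipids, was higher in KMS18 than in MM.1s (0.70) or RPMI8226 (0.55). ATG16L2 was higher in MM.1s than in RPMI8226 (0.89) and lower in KMS18 than in MM.1s (-0.96), and ATG16L1 higher in KMS18 than in RPMI8226 (0.39). ATG7 and ATG12 passed in no pair of lines.

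**Figure D5:**
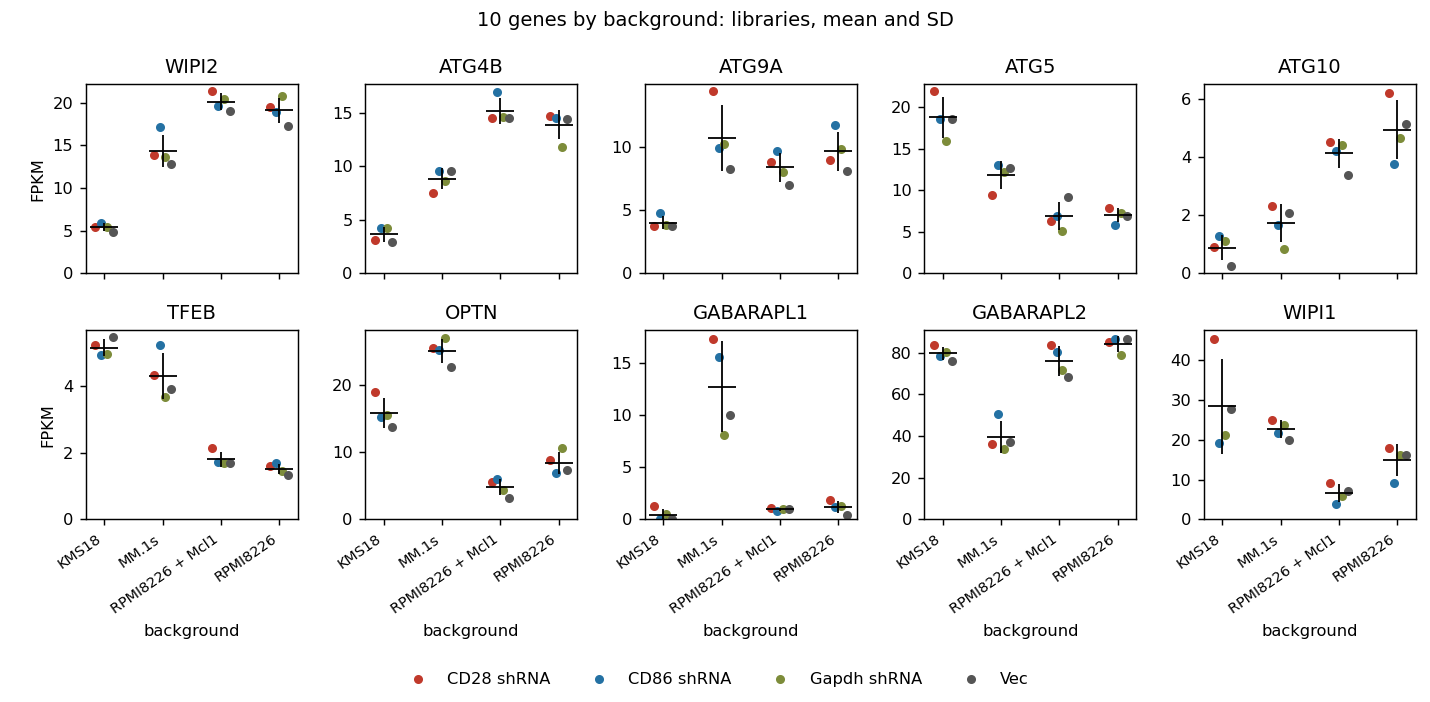
FPKM of 10 genes in each library (points coloured by shRNA), with the mean (horizontal bar) and SD (vertical bar) of the 4 libraries of each background. WIPI2, ATG4B and ATG9A are low in KMS18, GABARAPL1 is high and GABARAPL2 low in MM.1s, and TFEB and ATG5 are low in RPMI8226 and the Mcl1 line.

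Among the LC3 and GABARAP genes GABARAPL1 averaged 0.44 ± 0.59 in KMS18 (0 to 18 reads, 2 libraries at 0) and 12.7 ± 4.35 in MM.1s (142 to 289 reads), against 1.17 ± 0.58 in RPMI8226 (8 to 28 reads). It passed the filter of a mean of 1 FPKM through MM.1s, so these levels are a description. Its calls in the 3 line counts above (2.64 in MM.1s against RPMI8226, -3.28 and -0.63 in KMS18 against MM.1s and RPMI8226) rest on that filter and, at such low reads, on the pseudocount. GABARAPL2 was the reverse, at 79.6 ± 3.2 in KMS18 and 39.4 ± 7.61 in MM.1s, against 84.2 ± 3.70 in RPMI8226, so that MM.1s was lower than RPMI8226 (-1.10) and KMS18 higher than MM.1s (1.01). GABARAP averaged 95.7 ± 6.50 in KMS18 and 176.9 ± 38.2 in MM.1s, against 141.2 ± 19.9 in RPMI8226, lower in KMS18 than in either (-0.85 and -0.55) and higher in MM.1s than in RPMI8226 (0.31). MAP1LC3B was higher in KMS18 than in MM.1s (0.33) or RPMI8226 (0.62), and higher in MM.1s than in RPMI8226 (0.29).

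The cargo receptors also took line-specific levels, with SQSTM1 as the exception. SQSTM1 averaged 45.7 ± 6.91 in KMS18, 47.8 ± 9.98 in MM.1s and 45.4 ± 7.57 in RPMI8226 and passed in no pair (limma adjusted p 0.539 to 0.922). OPTN was at 15.9 ± 2.22 in KMS18 and 25.1 ± 1.79 in MM.1s, against 8.40 ± 1.69 in RPMI8226 (0.85 and 1.48), with ranges of 13.8 to 19.0, 22.6 to 27.0 and 6.86 to 10.6 FPKM that did not touch. TAX1BP1, a ubiquitin-binding receptor, was lower in KMS18 than in MM.1s (-0.33) or RPMI8226 (-0.75) and lower in MM.1s than in RPMI8226 (-0.42). CALCOCO2, the receptor NDP52, was lower in KMS18 than in MM.1s (-0.61) or RPMI8226 (-0.34) and higher in MM.1s than in RPMI8226 (0.26). NBR1, which shares its domain plan with SQSTM1, was lower in KMS18 and in MM.1s than in RPMI8226 (-0.34 and -0.47). TFEB was at 5.14 ± 0.25 in KMS18 and 4.29 ± 0.69 in MM.1s, against 1.51 ± 0.16 in RPMI8226 (1.29 and 1.07), and KMS18 did not pass against MM.1s (0.22, limma adjusted p = 0.0934).

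Some of these line calls ended when the libraries of an shRNA were left out. Against RPMI8226 in KMS18 these were NBR1 (-0.30 without Vec, -0.26 without Gapdh shRNA), CALCOCO2 (-0.31 without Gapdh shRNA), UVRAG (-0.23, -0.27 and -0.23 without Gapdh, CD28 or CD86 shRNA), ATG16L1 (0.32 and 0.27 without CD28 or CD86 shRNA), ATG4D (0.23 without CD28 shRNA) and GABARAPL1 (-0.47 without CD86 shRNA). Against MM.1s in KMS18 they were ATG4A (0.18 to 0.30 without each in turn), ATG4C (-0.47, -0.31 and -0.35 without Vec, CD28 or CD86 shRNA), MAP1LC3B (0.29 without Vec) and TAX1BP1 (-0.27 without Gapdh shRNA). Against RPMI8226 in MM.1s they were CALCOCO2 (0.27, 0.25 and 0.22 without Vec, CD28 or CD86 shRNA), GABARAP (0.33, 0.23 and 0.22 without Vec, Gapdh or CD86 shRNA), ATG2A (-0.27, -0.26 and -0.31 without Vec, CD28 or CD86 shRNA), NBR1 (-0.37 without Vec), MAP1LC3B (0.21 and 0.26 without Gapdh or CD28 shRNA) and WIPI1 (0.42 without CD86 shRNA).

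The Mcl1 line was compared with its parent RPMI8226 over the 4 shRNA libraries of each. WIPI1, ULK1 and OPTN were the members with the largest falls. WIPI1 read 9.09, 3.77, 5.98 and 7.24 FPKM with CD28, CD86 and Gapdh shRNA and Vec in the Mcl1 line, against 17.9, 9.15, 16.2 and 16.2 FPKM in RPMI8226 (log2 -1.09, SE 0.08, limma adjusted p = 0.000122). Each Mcl1 line library was below the RPMI8226 library with the same shRNA. ULK1 averaged 7.39 ± 1.04 FPKM in the Mcl1 line and 12.96 ± 2.19 in RPMI8226 (-0.73, limma adjusted p = 0.00046). OPTN averaged 4.83 ± 1.26 and 8.40 ± 1.69 FPKM in the same order (-0.70, limma adjusted p = 0.0119). For either gene the ranges did not overlap, and how many of all genes separate likewise was not computed. RB1CC1 (-0.30), ATG13 (-0.32), ATG12 (-0.36), GABARAP (-0.17) and NBR1 (-0.31) were lower too.

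SQSTM1 averaged 58.1 ± 5.71 FPKM in the Mcl1 line and 45.4 ± 7.57 in RPMI8226 and was higher (0.35, SE 0.05, limma adjusted p = 0.0019), with ranges of 53.4 to 66.4 and 40.7 to 56.7 FPKM that overlapped. ATG4C was the other gene higher in the Mcl1 line (0.44, limma adjusted p = 0.0277). In all, 10 of 36 members passed, 2 higher and 8 lower, where 34.4% of 11024 genes did (19.5% higher and 14.9% lower). BECN1 was at 0.10, ATG5 at -0.03, ATG7 at 0.09, MAP1LC3B at 0.15, GABARAPL1 at -0.09, TFEB at 0.16 and VMP1 at 0.02, all with a limma adjusted p of 0.251 to 0.885. The call of ATG4C ended without Vec, CD28 or CD86 shRNA (0.41, 0.32 and 0.46), that of OPTN without Vec (-0.61) and that of NBR1 without Gapdh shRNA (-0.23). All of the Mcl1 line's libraries come from a single derivation, so overexpression of Mcl1 and other changes of that line cannot be told apart.

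Genes downstream of the autophagosome and other pathway genes were taken from fixed lists. With CD28 shRNA against Vec 0 of 13 other initiation and nucleation genes and 0 of 15 genes of fusion with the lysosome passed, beside the 2.83% of all genes given above. Of 26 lysosomal hydrolases and membrane proteins 2 were higher and 0 lower, the protease CTSS (0.75, limma adjusted p = 0.00947) and the ceramidase ASAH1 (0.43, limma adjusted p = 0.0488), and the list's median was 0.24. Of 15 subunits of the V-ATPase, the proton pump of the lysosome, ATP6V1D was lower (-0.76, limma adjusted p = 0.0363). Of 15 genes of organelle and other selective autophagy, mostly receptors, PHB2 was lower (-0.45, limma adjusted p = 0.0213). Both hold CTGTGTT in the 3′ UTR, as does ASAH1, which was higher. None of 5 genes of the TFE3, MITF and FLCN group passed with CD28 shRNA. Nor did any of 13 NRF2 pathway genes, which are NRF2 targets with KEAP1 and NFE2L2, the gene of NRF2. SQSTM1 is known to influence NRF2 targets through KEAP1.

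With CD86 shRNA against Vec RTN3, a receptor for endoplasmic reticulum, was the only gene of these 7 lists past the threshold (-0.61, limma adjusted p = 0.0369), and its 3′ UTR holds both words. Between CD86 and CD28 shRNA 6 of 26 lysosomal genes were lower and 0 higher, beside 4.1% and 5.41% of all genes, among them SCARB2, the receptor that carries glucocerebrosidase (-0.81), CTSS (-0.79), CTSA (-0.61) and the cholesterol transporter NPC1 (-0.59), with a list median of -0.29. NRBF2, a subunit of the lipid kinase complex, was lower (-0.69) and ATG101, a partner of ATG13, higher (0.34). Of 15 V-ATPase subunits 1 was higher, ATP6V1H (0.65), and 3 were lower, ATP6V1G1 (-0.50), ATP6V1C1 (-0.42) and ATP6AP1 (-0.41). Of 15 genes of organelle and other selective autophagy PHB2 was higher (0.52) and RTN3 lower (-0.64). Of 15 fusion genes YKT6 was higher (0.37), and of 13 NRF2 pathway genes FTL was lower (-0.66). Of these genes NRBF2, SCARB2, ATP6V1G1, ATP6V1C1 and RTN3, all lower, hold the CD86 shRNA word, and ATP6V1C1 and RTN3 hold the CD28 shRNA word as well. CTSS, CTSA, NPC1, ATP6AP1 and FTL, also lower, hold neither word. Nor do CTSD (-0.48) and PSAP (-0.38), the other lysosomal genes that were lower. Among the genes that were higher, PHB2, ATP6V1H and YKT6 hold the CD28 shRNA word and ATG101 holds neither. With Gapdh shRNA against Vec none of the 7 lists had a gene past the threshold.

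In the Mcl1 line against RPMI8226 12 of 26 lysosomal genes were higher and 0 lower, beside 19.5% and 14.9% of all genes, among them GAA (1.01), NPC1 (0.68) and CTSZ (0.62), with a list median of 0.17. Of 15 V-ATPase subunits 7 were higher and 2 lower. Between lines, of 26 lysosomal genes 6 were higher and 15 lower in KMS18 than in RPMI8226, beside 35.2% and 35.1% of all genes, with the protease CTSB at -3.16. In MM.1s against RPMI8226 4 were higher and 14 lower, beside 35.9% and 33.2% of all genes, with CTSZ at -2.24. In KMS18 against MM.1s 10 were higher and 10 lower, beside 30.8% and 34.5% of all genes. TFE3, a relative of TFEB, was lower in MM.1s than in RPMI8226 (-3.81) and higher in KMS18 than in MM.1s (3.83). HMOX1, an NRF2 target, was at -4.69 in KMS18 and -1.83 in MM.1s against RPMI8226.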

How the data were processed

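The authors deposited 1 table of FPKM values for 23459 genes in 16 libraries, with exon lengths and their own log2 fold changes, p-values, false discovery rates, test scores and calls for 3 comparisons, per the file headers. Per the submitters' processing notes, which give no roles, the tools were edgeR 3.12.1, R 3.2.2, Picard and TopHat2 2.0.13, and the named builds GRCh37, hg19 and mm9. The strand setting is not given in the sources used here. FPKM times exon length gave whole reads for 100% of values within 0.02 of a read, and 80.8% to 84.4% of library totals (4690942 to 7172402) lay in genes. Whether both mates of a read pair were counted is unknown here. If they were, each read count given stands for fewer fragments, and voom takes these reads as more precise than they are.

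Here log2(FPKM + 1) was fitted with limma 3.58.1 in R 4.3.3 (eBayes with a mean-variance trend), with Python 3.11.15 for tables. Shrinking low values with a pseudocount of 1 understates changes of low genes. The knockdown and line comparisons used the 12 libraries of KMS18, MM.1s and RPMI8226 with terms for shRNA and line, over the 11316 genes averaging 1 FPKM or more (6 residual degrees of freedom). The Mcl1 line was compared with RPMI8226 in 8 libraries over 11024 genes (3 residual degrees of freedom), and its responses in 16 libraries over 11349 genes. P-values are two-sided, adjusted by Benjamini-Hochberg over all genes tested, with a threshold of 0.05, and measure only the spread between these libraries. The line pairs the libraries: in 18 same-line pairs deviations from the shRNA means correlated (r 0.87 to 0.952). The fit was run on simulated data with changes larger than any knockdown call of a member and the same response in every line. That run therefore does not show how reliable the calls here are. Alternatives were a pseudocount of 0.1, no filter, median-of-ratios scaling, voom on the whole reads with TMM, fits without the line or shRNA term, only the groups compared, Vec with Gapdh shRNA as control, and each line or shRNA left out.

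In each comparison every member past the threshold is named, with ULK1, BECN1, ATG5, ATG7, MAP1LC3B, GABARAPL1, SQSTM1, TFEB and VMP1 whatever their result. Of each other list up to 4 genes past the threshold are named, with CTSD and PSAP added for the 3′ UTR words. Members, lists and the search for 3′ UTR words were chosen with earlier results of these data known, and ATG14, ATG16L2, WIPI2, OPTN and PIK3R4 are also named where they did not pass, chosen after their values were seen. 3′ UTRs are from GENCODE release 29 (GRCh38), matched by symbol for all 38 members, with words of 7 bases held by at least 200 genes. For each gene 1 transcript was used, the one with the longest 3′ UTR, and whether these lines express it was not examined. A shared word is letters only. Where ranges or groups are said not to overlap or touch, the share of all genes that do the same was not computed.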

Additional observations from a re-analysis of the deposited data

How the results depend on the processing

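No member past the threshold reversed its direction under any alternative run, while members near 0 that did not pass could change sign, as SQSTM1 with CD86 shRNA against Vec (0.04 as reported and -0.07 without MM.1s). The count of members past the threshold changed for the knockdowns. For CD28 shRNA against Vec it was 2 as reported, 1 with a pseudocount of 0.1, 0 with no filter on low values, 0 with only the compared groups in the fit and 4 with Vec and Gapdh shRNA as control, where ATG14 (0.40) and GABARAPL1 (0.80) joined BECN1 and SQSTM1. For CD86 shRNA against Vec it was 1 as reported and 0 with only the compared groups. Between CD86 and CD28 shRNA it was 4 as reported, 2 with no filter, 5 with median-of-ratios scaling and 5 with voom, where ATG16L2 joined, and 0 with only the compared groups. With no replicate block, that is without the term that pairs libraries of a line, limma called 0 members and 0 of all genes in each of the 3 comparisons (2, 1 and 3 members at an unadjusted p under 0.05). Leaving out each line gave 0 to 0 for CD28 shRNA and for CD86 shRNA against Vec, and 0 to 1 between them. These fits have fewer libraries. Over all genes tested, CD28 shRNA against Vec had 320 calls as reported, 38, 132 and 33 without MM.1s, RPMI8226 and KMS18 in turn, 147 with no filter, 89 with only the compared groups, 694 with Vec and Gapdh shRNA as control and 598 with voom. CD86 shRNA against Vec had 71, with 5, 9 and 0 without the same lines, 30 with no filter, 7 with only the compared groups, 260 with Vec and Gapdh shRNA as control and 257 with voom. CD86 against CD28 shRNA had 1076, with 171, 525 and 137 without the same lines, 605 with no filter and 10 with only the compared groups. For BECN1 with CD28 shRNA the limma adjusted p was 0.0502 with the smaller pseudocount, 0.0749 with no filter and 0.0518 with median-of-ratios scaling. GABARAPL1 with CD28 shRNA was 0.97 as reported and 2.15 with the smaller pseudocount (limma adjusted p = 0.117), in a range of 0.0482 to 1 over all alternatives. Member counts between lines and between the Mcl1 line and RPMI8226 stayed within 1.5 times the reported ones under every alternative run (8 to 15 for the Mcl1 line, 10 as reported). Over all genes the Mcl1 line against RPMI8226 had 3793 calls as reported and 2459 with no shRNA term, and its responses to CD28 and CD86 shRNA had 1 and 0 as reported and 113 and 115 with no filter.

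Each combination has 1 library of 3914513 to 5900955 reads in genes, so low members rest on few reads (6 to 124 for ATG10, 46 to 72 for ATG14), and counting error alone is large for them. For a miss of the threshold in the knockdown comparisons, these data do not show that a member did not change.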

Other observations

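The low TFE3 level of MM.1s was shared with its neighbours on chromosome X. TFE3, CCDC120, PRAF2 and WDR45 follow each other as protein-coding genes in the RefSeq annotation of GRCh38. WDR45 encodes a lipid-binding relative of WIPI1 and WIPI2. TFE3 read 0.431 to 0.826 FPKM in the 4 MM.1s libraries (8 to 18 reads), 18.4 to 23.6 FPKM in KMS18, 25.1 to 31.7 FPKM in the Mcl1 line and 18.7 to 22.7 FPKM in RPMI8226. WDR45 read 0.091 to 0.545 FPKM in MM.1s (2 to 11 reads), 6.56 to 8.9 FPKM in KMS18, 7.16 to 10.8 FPKM in the Mcl1 line and 6.64 to 13.1 FPKM in RPMI8226. CCDC120 had 2 to 12 reads in MM.1s (0.0586 to 0.396 FPKM) and PRAF2 0 to 4 (0 to 0.3 FPKM). Neither was abundant elsewhere. CCDC120 read 0.401 to 1.05 FPKM in the Mcl1 line (10 to 30 reads), and PRAF2 0.995 to 1.31 FPKM in KMS18 (11 to 17 reads). The FPKM ranges of MM.1s did not overlap those of the other backgrounds for any of the 4 genes. How many of all genes show such a gap was not computed. For CCDC120 the gap was narrow, and its reads in MM.1s overlapped those in the Mcl1 line. The flanking genes did not share this, with GRIPAP1 at 16 to 19.5 FPKM and GPKOW at 9.22 to 14.7 FPKM in MM.1s. The region was looked at after the values of TFE3 and WDR45 had been seen, and the cause of the low values was not tested.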
